A study of Rattus norvegicus with 8 samples.

Results

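The genes described here carry symbols starting with Map4k, Map3k, Map2k or Mapk, that is, the kinases of the mitogen-activated protein (MAP) kinase cascades together with the proteins named after them. They were found by matching the RefSeq transcript accession of each array probe to a rat gene symbol, which gave 64 probes for 47 genes. Of these, 33 genes had a probe bright enough to test, among 13464 tested genes in all. RNA came from NR8383 cells, a macrophage line established from the lung lavage of a normal rat, that had been incubated for 4 h with zinc oxide (ZnO) at 4 µg/mL (ZnO 4) or at 16 µg/mL (ZnO 16), with 4 arrays per dose. The series' design calls the 4 arrays of a dose biological replicates. Untreated cells are not analysed here, so every difference is ZnO 16 minus ZnO 4. The labels describe the ZnO 4 cells as having gone through 20 passages and the ZnO 16 cells 200 passages, numbers taken as written, since no other source used here checks them and one may be a slip. Also, each dose was on a slide of its own, so the effects of dose, passage number, slide and scan cannot be told apart. NR8383 is a single cell line.

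MAP kinase cascades are relays of protein kinases. A MAP4K, or a small GTPase such as Ras or Rac, activates a MAP3K; the MAP3K phosphorylates a MAP2K; and the MAP2K phosphorylates a MAP kinase on a threonine and a tyrosine. The ERK arm answers mainly to growth factors and, in macrophages, to bacterial products by way of the MAP3K Tpl2. The JNK and p38 arms answer to stress and cytokines, and the ERK5 arm has a MAP2K of its own. The relay works by phosphorylation, so an array measures the abundance of the transcripts and not the activity of the kinases.

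Expression is given as the log2 of a probe's processed signal over the 75th percentile of its array, so 0 marks that percentile and 1 unit is a doubling. A level of 1 probe is not comparable with that of another. A gene was called when the adjusted p of limma's moderated test was under 0.05 (n = 4 arrays per dose unless stated). Of the 33 tested genes, 4 were called higher at ZnO 16 (12.1%, against 19.8% of all tested genes) and 5 were called lower (15.2%, against 21.9%). By size, 2 were higher by at least 1 on the log2 scale, where 6.86% of all tested genes were, and 2 were lower by at least 1, where 11.8% were. The 2 doses did not overlap, with ZnO 16 above, for 6 genes (18.2%, against 18.5% of all tested genes) and, with ZnO 16 below, for 6 genes (18.2%, against 21.4%). The cascade genes were thus called no more often than the genes of the array at large. The median difference of the 33 genes was -0.08, against 0.01 for all tested genes, and their median standard error was 0.229, against 0.203. Bulk RNA was measured, so fewer cells of a kind and less RNA per cell cannot be told apart.

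Across all genes the arrays of a dose correlated at 0.973 to 0.991 (ZnO 4) and 0.969 to 0.986 (ZnO 16), and arrays of different doses at 0.914 to 0.947. The dimmest arrays were ZnO 16 replicates 2 and 3, which had a 75th percentile signal of 150.7 and 190.1, against 312.6 to 516 on the other 6 arrays. The replicates numbered 4 each had a fault: blocks of the ZnO 4 array covering 2304 spots read low, and 608 spots of the ZnO 16 array were marked as non-uniform, against 3 to 21 on the others. Spike-in RNAs, which are added in known amounts, differed between the doses by -0.68 to 1.62 after scaling to the 75th percentile, which the RNA of the cells sets (7 spike-ins well above background on all 8 arrays, 5 of them by 1.15 or more). A change in the RNA of the cells and a difference between the slides cannot be told apart in these values, and a difference inside their range was no larger than one seen for added RNA. Scaling to the spike-ins, or not scaling at all, shifted the median of all genes by -0.79 and -0.75, and differences under those settings are given relative to that shift. Of 16 alveolar macrophage markers on the array, 13 were well above background, with a summed signal of 343 to 402 times the 75th percentile at ZnO 4 and 352 to 455 at ZnO 16. Of these 13, 1 was called higher (7.69%, against 19.8% of all tested genes) and 2 lower (15.4%, against 21.9%). The marker called higher was Spi1 at 0.81. Those called lower were Cd68, a lysosomal marker of macrophages, at -1.74 and Itgam at -0.52. Marco, Adgre1 and Chi3l1, which also mark macrophages, were well above background on no array. The 5 endothelial markers summed to 10.4 to 13.3 at ZnO 4 and 5.12 to 7.37 at ZnO 16. Most of this sum was Vwf, at a mean log2 level of 3.32 at ZnO 4, against 0.25 for Pecam1 and -2.91 for Cdh5. Kdr and Tek were well above background on no array. Marker sums for epithelium, fibroblasts, T cells, B cells, NK cells and neutrophils were at most 1.21. The part of the endothelial markers in the results was not tested.

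**Figure D1:**
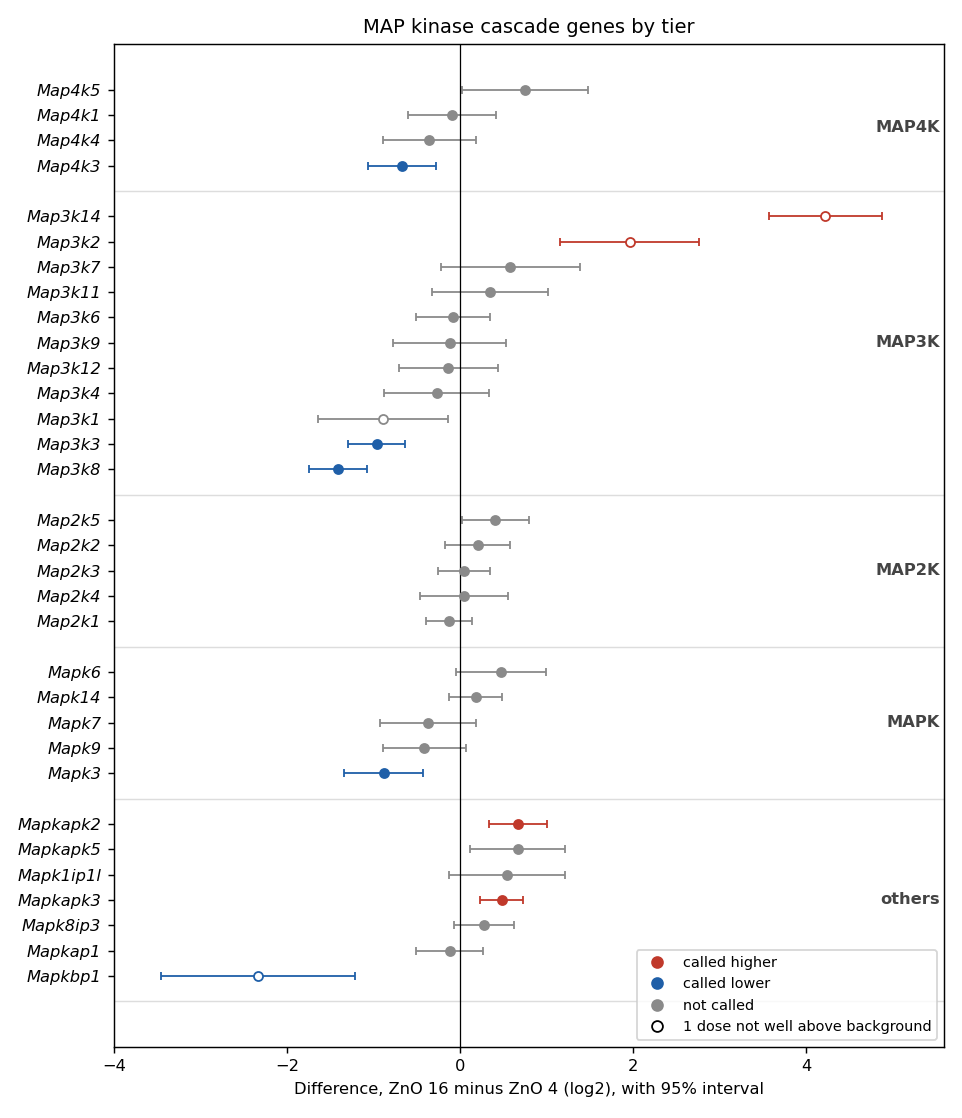
Difference of the tested genes except 1 not reported here, ZnO 16 minus ZnO 4 (log2, horizontal axis), with the 95% interval from limma, by tier of the cascade; red points were called higher, blue lower, grey not called, and open points were well above background on no array of 1 dose. Map3k14, Map3k2, Map3k1 and Mapkbp1 are open points, whose size depends on how background is handled, and all 5 MAP2K genes lie between -0.13 and 0.41.

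The 4 kinases at the head of the relay were all measured, and 1 of them fell. Map4k3 (GLK), which activates the JNK arm and acts in amino acid sensing, was at -0.67, -1.21, -0.85 and -0.85 on the ZnO 4 arrays and at -1.58, -1.88, -1.51 and -1.30 on the ZnO 16 arrays. Every ZnO 16 array lay below every ZnO 4 array. The difference was -0.67 ± 0.18 (SE, adjusted p = 0.0122), a 1.59-fold fall. It is inside the spike-in range, and the call was lost with median scaling (-0.68, adjusted p = 0.0535) and without ZnO 16 replicates 2 and 3 (-0.54, adjusted p = 0.057). Without scaling and with spike-in scaling the difference relative to all genes was -0.68, with a larger standard error (0.452 and 0.42), and not called (adjusted p = 0.381 and 0.327). Before the shift of all genes was taken off it was called lower in both (-1.43 and -1.47). Over all settings the adjusted p ranged from 0.00875 to 0.381.

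The other 3 MAP4K genes were not called. Map4k5, a kinase of the germinal centre kinase family, differed by 0.75 (95% interval 0.03 to 1.48, adjusted p = 0.0886) and was well above background on 2 ZnO 4 arrays and 3 ZnO 16 arrays. It was called without ZnO 4 replicate 1 (0.97) or without ZnO 16 replicate 2 (0.96). Map4k4, which signals to JNK downstream of tumour necrosis factor, differed by -0.35 (-0.89 to 0.18). Map4k1 (HPK1), a blood cell kinase that restrains lymphocyte receptor signalling, differed by -0.09 (-0.60 to 0.42).

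The MAP3K tier moved in both directions. Of 14 MAP3K genes on the array 11 were tested, 2 rose and 2 fell. Both genes that rose passed the filter through ZnO 16 alone, and passing that way favours genes that read higher at that dose. With well above background required on all 8 arrays, no MAP3K gene was called higher. Map3k14 (NIK), the kinase that phosphorylates IKK-alpha to start the non-canonical NF-kappaB pathway, read -6.07, -5.34, -5.42 and -5.19 on the ZnO 4 arrays, none of which it was well above background on. At ZnO 16 it was well above background on all 4 arrays, at -1.80, -0.89, -0.92 and -1.51. The groups are separated by more than 3 log2 units. Map3k14 was at least 8.06-fold higher at ZnO 16; this bound sets the ZnO 16 mean against the dimmest signal that counted as well above background on each ZnO 4 array. The fitted difference was 4.22 ± 0.30 (SE, adjusted p = 3.57e-06), and 1.32 with a different background correction (normexp, adjusted p = 0.000518). Over all settings the adjusted p ran from 5.3e-08 to 0.000518. Since the signal at ZnO 4 was at background, the size rests on how background is handled: the 1.32 is smaller than the bound of 3.01 log2 units, which holds only for the processing used for that bound.

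Map3k2 (MEKK2), which acts on the MAP2K of the ERK5 arm and on JNK, also rose from background. It read -4.81, -4.39, -4.62 and -5.77 at ZnO 4, well above background on no array, and -2.58, -3.45, -3.17 and -2.54 at ZnO 16. It was at least 2.56-fold higher, with a fitted difference of 1.96 ± 0.36 (SE, adjusted p = 0.00195). With normexp the difference was 0.76, smaller than the bound (adjusted p = 0.008, range over settings 0.00146 to 0.0145). That range is for differences relative to all genes. Before the shift of all genes was taken off, Map3k2 was not called without scaling (1.21, adjusted p = 0.0801) or with spike-in scaling (1.17, adjusted p = 0.0794). Map3k2 was higher on 4 of 4 ZnO 16 arrays than on any ZnO 4 array.

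Map3k8 and Map3k3 fell, both well above background on all 8 arrays. Map3k8 (Tpl2, or Cot) is the MAP3K through which bacterial lipopolysaccharide reaches ERK in macrophages. It was at -0.15, 0.13, 0.13 and -0.27 at ZnO 4 and at -1.38, -1.33, -1.67 and -1.41 at ZnO 16. The doses lay farther apart than the arrays of either dose. The difference of -1.41 ± 0.15 (SE, adjusted p = 6.04e-05), a 2.65-fold fall, was called in all 24 settings run, between -1.498 and -1.18.

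Map3k3 (MEKK3), the close relative of Map3k2 that also acts on the ERK5 arm, went the other way from it. Its levels were 0.03, -0.18, -0.14 and 0.11 at ZnO 4 and -0.71, -1.11, -1.18 and -1.03 at ZnO 16, with no overlap. The difference was -0.96 ± 0.15 (SE, adjusted p = 0.000688), a 1.95-fold fall. Without scaling and with spike-in scaling the difference relative to all genes stayed at -0.96, with a larger standard error (0.43 and 0.408), and was not called (adjusted p = 0.155 and 0.128). Before the shift of all genes was taken off it was called lower in both (-1.71 and -1.75). The adjusted p ranged from 0.000161 to 0.155 over the settings.

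The promoters of Map3k14, Map3k2 and Map3k8, which changed in opposite directions within 1 tier, are shown, and that of Map3k3, which also fell, is not. Each run is the 250 bases before the gene start in the RefSeq promoter table of assembly GRCr8, on the strand of the gene and 5′ to 3′. Map3k14 lies on the minus strand (chr10:88715593-88715842), Map3k2 on the plus strand (chr18:24081194-24081443) and Map3k8 on the plus strand (chr17:58077925-58078174). Capitals mark a match on either strand to 1 of 6 short motifs: AP-1 (TGANTCA), the cyclic AMP element CRE (TGACGTCA), CARE (TGATGNAA), which ATF4 binds, the metal response element core MRE (TGCACNC or TGCGCNC), the heat shock element HSE (GAANNTTC) and the ETS motif (CCGGAAG).
Map3k14: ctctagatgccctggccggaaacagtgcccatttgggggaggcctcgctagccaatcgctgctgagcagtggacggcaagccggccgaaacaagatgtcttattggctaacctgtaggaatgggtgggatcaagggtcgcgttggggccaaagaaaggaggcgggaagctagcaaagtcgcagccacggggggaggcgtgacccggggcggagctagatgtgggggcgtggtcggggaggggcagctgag
Map3k2: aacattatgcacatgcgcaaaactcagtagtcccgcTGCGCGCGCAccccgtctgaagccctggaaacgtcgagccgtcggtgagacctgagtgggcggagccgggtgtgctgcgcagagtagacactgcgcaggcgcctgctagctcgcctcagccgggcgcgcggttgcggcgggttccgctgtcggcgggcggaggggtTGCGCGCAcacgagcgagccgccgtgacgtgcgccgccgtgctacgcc
Map3k8: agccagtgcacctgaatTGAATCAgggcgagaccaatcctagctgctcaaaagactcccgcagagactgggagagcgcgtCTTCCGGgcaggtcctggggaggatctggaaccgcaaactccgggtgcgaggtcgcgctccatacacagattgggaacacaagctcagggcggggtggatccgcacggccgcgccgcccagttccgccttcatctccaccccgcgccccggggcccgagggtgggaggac
The Map3k14 run held no match; for this gene the RefSeq gene table puts the start elsewhere than the promoter table, and no other window was searched. The Map3k2 run held 4 MRE matches in 2 clusters, those of a cluster overlapping each other, which begin 214, 211, 48 and 47 bases before the start. The Map3k8 run held 1 AP-1 match, 233 bases before the start, and 1 ETS match, 170 bases before it. Among the other called genes with a promoter, Map3k3 held 1 MRE match and Map4k3 held 2, and both genes fell. Mapkapk2 and Mapkapk3, which rose, and Mapkbp1, which fell, held no match. Whether a match goes with a change was not tested. Of the 47 genes 39 had a promoter in the table. An MRE match stood in 43.6% of these 39, in 20.6% of all 33469 promoters and in 31% of the 6669 promoters of other tested genes. Median GC content was 64.6% for tested members with a promoter, 51.2% for all promoters and 59.6% for other tested genes, and the MRE core is itself rich in G and C. An AP-1 match stood in 5.13% of the 39, 6.34% of all promoters and 4.51% of those of other tested genes. An ETS match stood in 12.8%, 7.27% and 18.1%. The 39 include genes that were not tested, unlike the set of other tested genes. Of the 28 tested cascade genes with a promoter, 13 held an MRE match, 2 an AP-1 match and 5 an ETS match. A match is only the presence of these letters in this window.

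The 7 remaining MAP3K genes, all of which feed the JNK and p38 arms, were not called. Map3k7 (TAK1), which joins Toll-like and interleukin-1 receptors to those arms, differed by 0.58 (95% interval -0.22 to 1.39), and by 0.21 without ZnO 4 replicate 4. Map3k1 (MEKK1) differed by -0.89 (-1.64 to -0.14, adjusted p = 0.057). It was well above background on no ZnO 16 array, the bound was at least 1.16-fold lower, and with normexp the value was 0.06. It was called lower without ZnO 4 replicate 4 (-1.07), without ZnO 16 replicate 2 (-1.02) and without the intensity trend. Map3k11 (MLK3) differed by 0.35, and by 0.80 and called without both arrays numbered 4 (adjusted p = 0.012). Map3k12 (DLK) differed by -0.13. Map3k4, which GADD45 proteins activate, differed by -0.27 and Map3k6 (ASK2), a partner of the oxidant sensor ASK1, by -0.08. Map3k9 (MLK1) had 3 probes, with differences of -0.12, 0.44 and 0.50, none of them called.

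**Figure D2:**
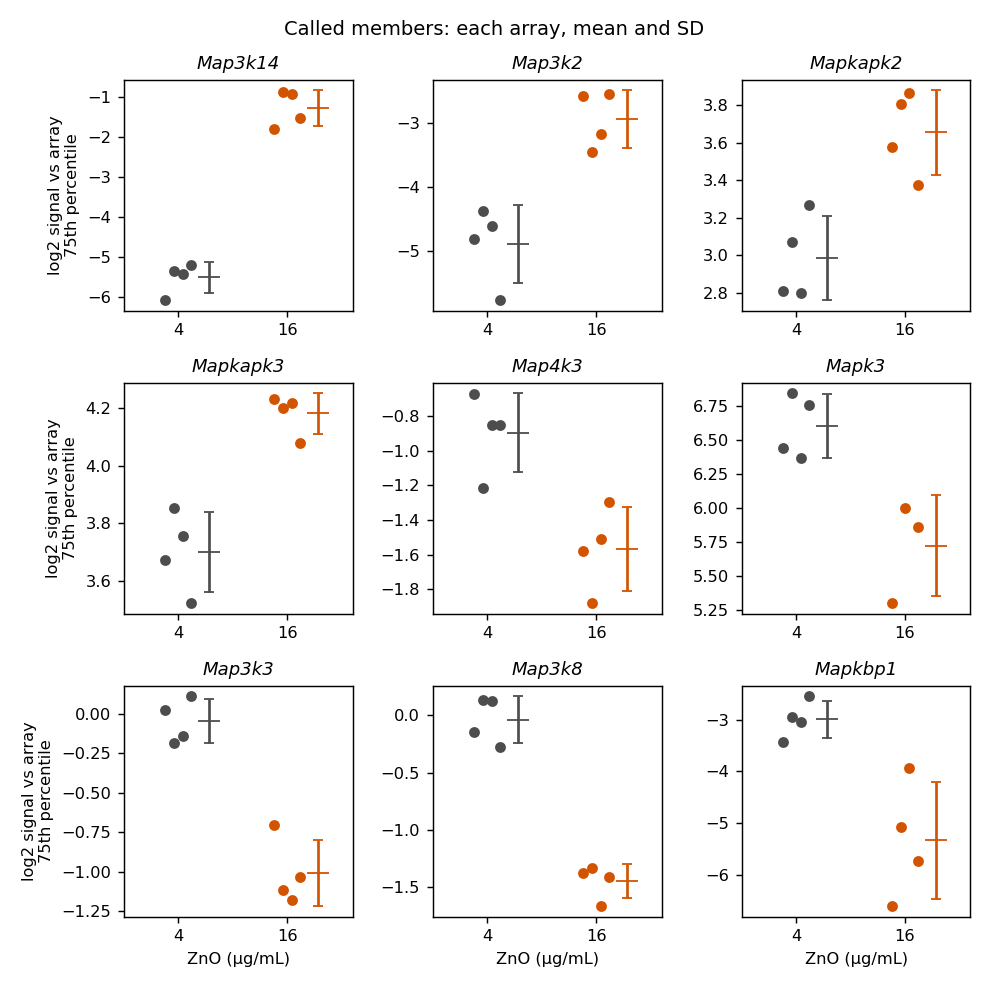
Level on every array (log2 signal over the array's 75th percentile, vertical axis, scaled separately in each panel) at ZnO 4 (grey) and ZnO 16 (orange) for the 9 called genes; the horizontal tick and bar beside the points are the mean and SD of a dose. The doses do not overlap in any panel, but the genes were picked for being called. Mapk3 has 3 points at ZnO 16 because 1 spot was marked as non-uniform. That spot read 7.82, above every ZnO 4 array, so with it kept the Mapk3 doses would overlap.

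None of the 5 tested MAP2K genes was called, and their differences ran from -0.13 to 0.41. Map2k1 (MEK1), which phosphorylates the ERK kinases, was at 1.55, 1.54, 1.602 and 1.35 at ZnO 4 and at 1.49, 1.34, 1.18 and 1.502 at ZnO 16. The doses overlapped, and the difference was -0.13 (95% interval -0.40 to 0.13). Map2k2 (MEK2), its partner, was at 1.71, 1.92, 1.51 and 1.88 and then at 1.74, 2.34, 2.09 and 1.66. These overlapped too, with a difference of 0.20 (-0.17 to 0.58). Both intervals leave out a change of 1 log2 unit either way.

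Map2k3 (MKK3), which phosphorylates p38, was at 2.81, 2.90, 2.88 and 3.24 at ZnO 4 and at 3.25, 3.01, 2.93 and 2.84 at ZnO 16. It overlapped throughout, with a difference of 0.05 (-0.25 to 0.35). Map2k4 (MKK4), which serves JNK and p38, was at -2.02, -2.17, -1.63 and -2.06 and then at -1.62, -2.26, -2.31 and -1.51. Its difference was 0.05 (-0.46 to 0.55), and the ZnO 16 arrays lay on both sides of the ZnO 4 arrays.

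Map2k5 (MEK5), the MAP2K of the ERK5 arm, was the only MAP2K gene whose doses did not overlap on the probe used for the gene. It was at -2.76, -2.62, -2.65 and -2.41 at ZnO 4 and at -2.33, -1.97, -2.26 and -2.26 at ZnO 16. The difference of 0.41 (0.02 to 0.79) had an adjusted p of 0.0829. With the 75th percentile of detected probes alone it was 0.48 and called (adjusted p = 0.0373), and it was called with the same value when the intensity trend was left out (adjusted p = 0.0448).

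Second probes of 2 MAP2K genes gave another answer than the brighter probe used for the gene. The second probe of Map2k1 was at 0.54, 0.65, 0.82 and 0.74 at ZnO 4 and at 1.09, 1.07, 0.88 and 1.14 at ZnO 16. It differed by 0.36 and was called higher (adjusted p = 0.034). The second probe of Map2k3 went from -1.63, -1.42, -1.33 and -1.003 to -0.41, -0.19, -0.08 and -0.08, a called difference of 1.16 (adjusted p = 0.000374). For Map2k3 the mean of both probes differed by 0.60 (adjusted p = 0.00449, range over settings 0.00449 to 0.999), so the absence of a call for this gene holds for its brighter probe and not for both. The probes of a gene can report different transcript ends or isoforms, and which was the case here was not tested.

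**Figure D3:**
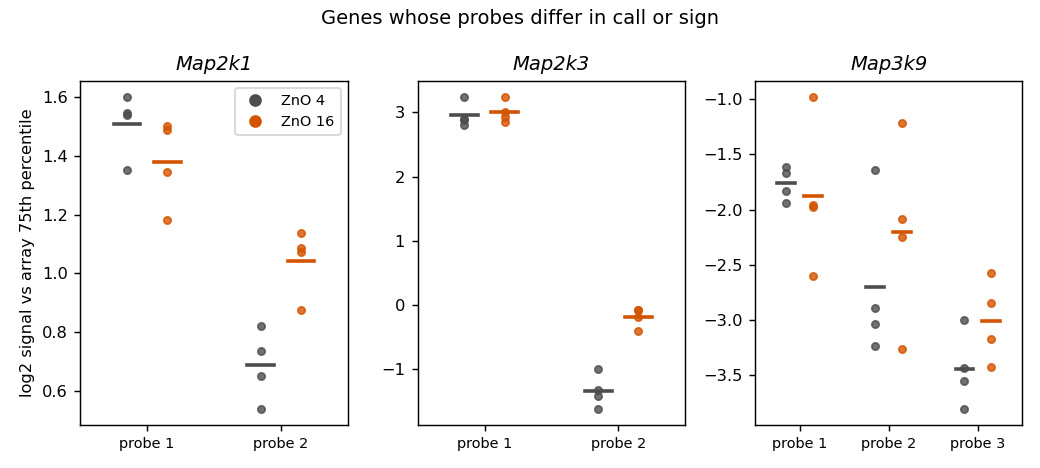
Level on each array (log2 signal over the array's 75th percentile, vertical axis) for every tested probe of Map2k1, Map2k3 and Map3k9, with ZnO 4 in grey and ZnO 16 in orange and a line at each mean; probe 1 is the brightest. The second Map2k1 and Map2k3 probes separate the doses while the first do not.

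Of the 13 MAP kinase genes on the array, 6 were tested and 1 was called. Mapk3 (ERK1) fell, from 6.44, 6.85, 6.37 and 6.76 at ZnO 4 to 5.30, 6.004 and 5.86 on 3 ZnO 16 arrays. Its spot on ZnO 16 replicate 4 was marked as non-uniform and left out, so n = 3 at that dose. The difference was -0.88 ± 0.20 (SE, adjusted p = 0.00768). The omitted spot read 7.82, above every other array, and with flagged spots kept the difference was -0.36 and not called (adjusted p = 0.547, range over settings 0.000537 to 0.547). The Mapk3 call thus depends on leaving out that 1 spot.

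The JNK and p38 kinases measured did not pass the test. Mapk9 (JNK2) was at -0.69, -1.22, -0.81 and -1.03 at ZnO 4 and at -1.10, -1.60, -1.78 and -0.92 at ZnO 16. The doses overlapped, with a difference of -0.41 (-0.89 to 0.07). Mapk14 (p38-alpha), the main p38 of macrophages, was at 2.55, 2.61, 2.66 and 2.52 and then at 2.81, 2.92, 2.95 and 2.40. ZnO 16 replicates 1 to 3 lay above every ZnO 4 array and replicate 4 lay below them all. Its difference was 0.18 (-0.12 to 0.49), and it was called at 0.31 only when ZnO 16 replicate 4 was left out (adjusted p = 0.0436).

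Mapk7 (ERK5) was at -2.12, -2.24, -2.33 and -1.61 at ZnO 4 and at -2.81, -1.93, -2.26 and -2.78 at ZnO 16. The doses overlapped, with a difference of -0.37 (-0.92 to 0.19). Without ZnO 16 replicates 2 and 3, the dim arrays, it was -0.72 and called (adjusted p = 0.0466). Mapk6 (ERK3), an atypical MAP kinase that lacks the usual activation motif, was at -1.29, -1.39, -1.29 and -1.63 and then at -0.31, -1.26, -1.40 and -0.71. On the ZnO 16 arrays, replicates 1 and 4 were high and the rest lay close to the ZnO 4 range. The difference was 0.48 (-0.04 to 0.9998), and without replicates 2 and 3 it was 0.89 and called (adjusted p = 0.00671).

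The other 14 genes on the array could not be tested because no probe of theirs was well above background on 3 of the 4 arrays of a dose. They included the MAP kinases Mapk8 (JNK1, 3 probes), Mapk10 (JNK3), Mapk11, Mapk12 and Mapk13 (further p38 kinases), Mapk4 and Mapk15, and the MAP2K genes Map2k6 and Map2k7. The rest were Map3k5 (ASK1), Map3k13, Map3k21, Map3k7cl and Mapk8ip1. Of the 14, 4 had a probe well above background on some arrays: Mapk13 on 2 at each dose, Map2k7 on 2 at ZnO 4 and 1 at ZnO 16, Mapk8 on 1 and 2, and Map3k5 on 1 at ZnO 4. The JNK arm is thus seen here through Mapk9 and the p38 arm through Mapk14. A signal near background gives a limit of the array, not the absence of the transcript. By share, 70.2% of the cascade genes were tested, against 48.1% of all genes with a symbol on the array. Map3k10, Map3k15, Map3k19, Map3k20 and Map4k2 were matched to no probe and are not analysed here.

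**Figure D4:**
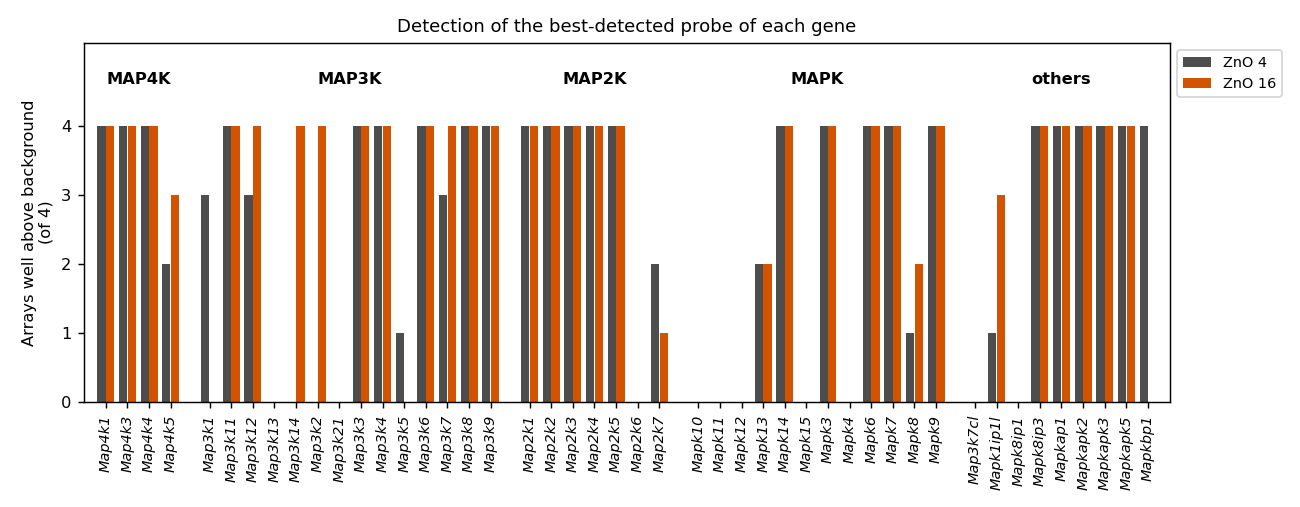
Number of arrays, of 4 per dose, on which the best-detected probe of each gene was well above background (vertical axis), grey for ZnO 4 and orange for ZnO 16, by tier. Map3k14 and Map3k2 were well above background on all 4 ZnO 16 arrays and on none at ZnO 4, and Mapkbp1 was the reverse.

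The filter bears on these counts. Of the 33 tested genes, 6 passed it through 1 dose alone (Map3k14, Map3k2, Map4k5 and Mapk1ip1l through ZnO 16, Map3k1 and Mapkbp1 through ZnO 4). Passing that way favours genes that read higher at that dose but does not force a difference. Map4k5 passed with 3 ZnO 16 arrays against 2 ZnO 4 arrays and Mapk1ip1l with 3 against 1, and the doses overlapped for both. With well above background required on all 8 arrays, 25 cascade genes remained, of which 2 were called higher (Mapkapk2 and Mapkapk3, 8%, against 21.6% of all genes that passed) and 4 lower (16%, against 20.2%).

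Downstream of p38, both of its paired substrate kinases rose by a small amount. Mapkapk2 (MK2), which p38 activates and which stabilises cytokine messenger RNAs, was at 2.81, 3.07, 2.80 and 3.27 at ZnO 4 and at 3.58, 3.81, 3.86 and 3.37 at ZnO 16. The difference was 0.67 ± 0.15 (SE, adjusted p = 0.00618), a 1.59-fold rise. Mapkapk3 (MK3), its close relative, was at 3.67, 3.85, 3.75 and 3.52 and then at 4.23, 4.20, 4.22 and 4.08, a difference of 0.48 ± 0.11 (SE, adjusted p = 0.00668). Every ZnO 16 array was above every ZnO 4 array for both, and both differences are inside the spike-in range. Without scaling and with spike-in scaling the differences relative to all genes stayed at 0.67 and 0.48, with standard errors of 0.313 to 0.343, and neither was called (adjusted p = 0.217 and 0.422 without scaling, 0.177 and 0.396 with spike-in scaling). Before the shift of all genes was taken off, both genes had negative differences under these 2 settings and were not called. Mapkapk2 was at -0.085 without scaling and -0.12 with spike-in scaling, and Mapkapk3 at -0.27 and -0.31. Mapkapk3 was not called with normexp (0.33, adjusted p = 0.0717). Over the settings the adjusted p ran from 0.0011 to 0.217 for Mapkapk2 and from 0.00187 to 0.422 for Mapkapk3.

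Mapkapk5 (PRAK), another kinase of this kind, was at -0.87, -0.65, -0.71 and -1.89 at ZnO 4 and at -0.38, -0.37, -0.36 and -0.34 at ZnO 16. The ZnO 16 arrays were all higher and close to one another, while ZnO 4 replicate 4 was low. The difference of 0.67 (0.11 to 1.22) was not called (adjusted p = 0.0533). Without ZnO 4 replicate 4 it was 0.38 and called (adjusted p = 0.0456), the range over settings being 0.0382 to 0.367.

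Mapkbp1, a JNK-binding protein that also restrains NF-kappaB signalling through NOD2, fell to background. It was at -3.43, -2.95, -3.05 and -2.55 at ZnO 4, well above background on all 4 arrays, and at -6.60, -5.06, -3.93 and -5.72 at ZnO 16, on none. It was at least 2.18-fold lower, with a fitted difference of -2.33 ± 0.50 (SE, adjusted p = 0.00473). With normexp the difference was -0.37, smaller in size than the bound, and not called (adjusted p = 0.307, range over settings 0.000402 to 0.307). The ZnO 16 values spread widely, and a second probe was well above background on no array.

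The scaffold and partner genes did not pass the test. Mapk8ip3 (JIP3), a JNK scaffold and motor adaptor, differed by 0.28 (-0.07 to 0.63), and without ZnO 4 replicate 4 by 0.40 (adjusted p = 0.0496). Mapkap1 (SIN1), a subunit of the mTORC2 kinase complex, differed by -0.12 (-0.50 to 0.27). Mapk1ip1l differed by 0.55 (-0.12 to 1.21).

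Read by arm, beside the 19.8% of all tested genes called higher and 21.9% called lower, the counts are small. The ERK arm had 5 tested genes, none called higher and 2 called lower (Map3k8 and Mapk3). The p38 arm had 5 tested genes (Map2k3, Mapk14, Mapkapk2, Mapkapk3 and Mapkapk5), 2 called higher and none lower, with a median of 0.48. All 5 p38 values were above 0, the lowest being Map2k3 at 0.05. The signs of Map2k3 (-0.03 to 0.60) and Mapk14 (-0.00686 to 0.31) were not stable over the settings. The JNK arm had 3 tested genes (Map2k4, Mapk9 and Mapk8ip3) and the 7 MAP3K genes shared by JNK and p38 had medians of 0.05 and -0.12, with no call in either group. This rests on how genes were assigned. Map4k3 and Mapkbp1, both tied to JNK and both called lower, were counted in no arm, nor was Map4k4, which was not called. Map3k2, which also acts on JNK, was counted with ERK5. The ERK5 arm had 4 tested genes, with Map3k2 higher, Map3k3 lower, and Map2k5 and Mapk7 not called. The difference between arms was not tested.

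Other genes of the pathway were counted from lists on the same arrays. Of 11 tested genes of the Ras and Raf group, which carry growth factor signals to MEK or regulate them, 4 rose (36.4%, against 19.8% of all tested genes) and none fell (against 21.9%), with a median difference of 0.26. The largest of these were the small GTPase Hras (1.04, adjusted p = 0.000537), the MAP3K Araf (0.98) and Rras (0.62). Hras was not called with normexp (0.23, adjusted p = 0.167) or with the mean of its probes (0.36, adjusted p = 0.176), and Araf was at 0.38 with the mean of its probes. Neither Araf nor Rras was called without scaling or with spike-in scaling, where their differences relative to all genes stayed at 0.98 and 0.62 with standard errors of 0.326 to 0.377.

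The list of genes that pass stress signals to the MAP3K tier, or regulate them, had 15 tested genes, with a median of -0.17. Of these, 5 rose (33.3%, against 19.8% of all tested genes) and 3 fell (20%, against 21.9%). Gadd45a rose by 3.15 and Gadd45b by 2.01, both stress-induced proteins that bind and activate the product of Map3k4, itself not called. The adaptors Traf2 (1.62) and Traf6 (1.52) and the kinase Ripk1 (0.85) rose as well. In resting cells TRAF2 and TRAF3 hold the NIK protein low. Stk4 (MST1) fell by 1.67 and was at least 1.39-fold lower, but was not called with normexp (-0.11), with signals raised to the background floor (-0.50) or without both arrays numbered 4 (-1.25).

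The phosphatases that remove phosphate from MAP kinases, with the Sprouty-type inhibitors, had 12 tested genes, with a median of 0.45. Of these, 6 rose (50%, against 19.8% of all tested genes) and 1 fell (8.33%, against 21.9%). Dusp1 (MKP-1), which inactivates p38 and JNK in macrophages, was at least 51.6-fold higher and well above background on no ZnO 4 array. With normexp it rose by 3.62, which is less than that bound. Dusp2 rose by 3.12 and Dusp5, which acts on ERK, by 2.35. The gene that fell was Ppm1d, the p53-induced phosphatase WIP1, by 0.83.

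Scaffold proteins had 8 tested genes, with a median of 0.08. Of these, 2 were higher (25%, against 19.8% of all tested genes) and 2 lower (25%, against 21.9%). Lamtor3 (MP1), which holds MEK1 and ERK1 at late endosomes, rose by 1.73, or 1.11 with the low area of ZnO 4 replicate 4 masked, and was not called without ZnO 16 replicates 2 and 3 (1.65, adjusted p = 0.079). Filamin A (Flna) rose by 0.75, and beta-arrestin 1 (Arrb1) fell by 0.73 but was not called with the mean of its probes (-0.25, adjusted p = 0.359). Without scaling and with spike-in scaling Flna and Arrb1 were not called, at 0.75 and -0.74 relative to all genes with standard errors of 0.332 to 0.418.

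The substrate kinases and transcription factors at the end of the cascades had 21 tested genes, with a median of 0.88. Of these, 12 rose (57.1%, against 19.8% of all tested genes) and 1 fell (4.76%, against 21.9%). Fos was at least 21.5-fold higher, well above background on no ZnO 4 array. Fosb rose by 4.25, Junb by 3.57 and Jun by 2.95, all subunits of AP-1. Stat3 fell by 1.52. The normexp correction gave smaller values for the genes that were dim at ZnO 4 (3.62 for Dusp1, 2.54 for Fos, 2.61 for Fosb and 2.19 for Junb), all still called. For Dusp1 and Fos these values lie below the bounds, which hold only for the processing used for them. In this comparison the cascade genes had a median of -0.08 while the substrate kinases and transcription factors had one of 0.88; the difference between these lists was not tested.

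**Figure D5:**
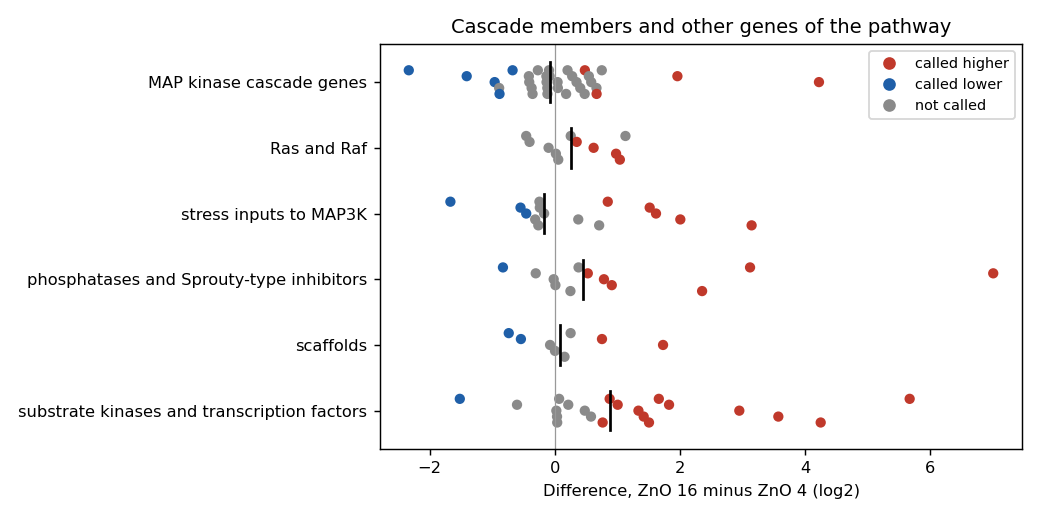
Difference of each tested gene, ZnO 16 minus ZnO 4 (log2, horizontal axis), for the cascade genes and 5 other lists of the pathway; points are genes, red called higher, blue called lower, grey not called, and the vertical bar is the median of the list. The cascade genes centre on -0.08, and the substrate and transcription factor list on 0.88. In that list 12 of 21 genes were called higher (57.1%, against 19.8% of all tested genes).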

How the data were processed

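Per the labels' protocols, Cy3-labelled cRNA was hybridised to Agilent arrays read in 1 colour. The deposited files hold Agilent Feature Extraction 11.0.1.1 output, per the submitters' processing notes. Their processed signal is a linear intensity that was background-subtracted within each array, per the file headers, and no normalization between arrays had been applied. Flags of 0 or 1, also deposited, marked spots that were well above background or were outliers.

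From these, the log2 of the deposited intensity was computed and the 75th percentile of the array's non-control spots taken off. Spots flagged as non-uniform or as population outliers were left out, and spots of a probe were averaged. To be kept, a probe had to be well above background on 3 or more of the 4 arrays of a dose, and the brightest kept probe stood for its gene. Accessions were matched without versions to RefSeq symbols of assembly GRCr8, used for names and promoter sequences only: 21109 of 45598 probes (46.3%) had a symbol. The file headers name another build, so no position of a probe is given.

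All 13464 genes were tested together with limma 3.58.1 in R 4.3.3 (lmFit and eBayes, with a trend in intensity; tests were two-sided), p-values adjusted by Benjamini-Hochberg, threshold 0.05. The code was tested on simulated data. "At least N-fold" is used where, at the dimmer dose, a probe was well above background on no array. The dimmer dose then enters, array by array, at its lowest well-above-background signal, or at the probe's own signal if that is higher. Each bound holds only for this processing. With normexp, every gene given a bound differed by less than its bound. No spot was saturated. The number of arrays limits the precision.

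The cascade genes and the pathway and marker lists were chosen with earlier results of these data known. Every tested cascade gene is named except 1 that counts and medians include but that is not reported here. All 8 values are given for the other MAP kinases, MAP2K genes and called genes, and the 3 largest called differences of each pathway list are named. Other genes named from the lists (Traf2, Traf6, Ripk1, Jun, Cd68, Spi1, Itgam and the only genes of a list that fell) were picked after their values were seen. The alternatives covered scaling, background correction (normexp with an offset of 50), the filter, signals below background, the choice of probe, flagged spots, low areas, the variance model, a replicate block and each array left out. Leaving out both arrays numbered 4, or ZnO 16 replicates 2 and 3, was chosen after seeing the data.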

Additional observations from a re-analysis of the deposited data

How the results depend on the processing

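Over 24 settings the 33 cascade genes gave 749 differences with the same call as in the report, 21 that gained a call and 13 that lost one, and no called difference changed sign. Where a setting moved the median of all genes by over 0.1, these differences were taken relative to it. Counted before the shift of all genes was taken off, 1 cascade gene (Map3k14) was called higher and 8 lower without scaling, and 1 (Map3k14) higher and 9 lower with spike-in scaling; all genes then gave 230 higher and 4412 lower, and 228 higher and 4975 lower. With normexp 7 were higher before that setting's shift of 0.15 was taken off (21.2%, against 20.7% of all genes) and 3 after; with well above background required on all 8 arrays 2 were higher, with fewer genes tested. The split of all genes was 3408 higher and 1979 lower with median scaling, and 2784 and 1998 with normexp. The median difference of the cascade genes was 0.0853 with median scaling, -0.84 without scaling, -0.87 with spike-in scaling, 0.19 with normexp, 0.0792 with no filter on dim probes, 0.11 with the mean of probes and 0.10 without both arrays numbered 4, and the cause was not tested. Minus the median of all genes, it was -0.09 in the report and with median, no or spike-in scaling, 0.03 with normexp, -0.00245 with no filter, 0.11 with the mean of probes and 0.07 without both arrays numbered 4. Leaving out 1 array at a time gave a median of -0.0727 to 0.0686, 4 to 6 genes higher and 5 to 6 lower, and none of the 9 calls was lost. In their deviations from the dose means, same-numbered arrays correlated at 0.25, 0.40, -0.22 and -0.03. These values do not settle whether the arrays were paired by number. With the replicate number as a block, 4 cascade genes were higher and 5 lower, and all genes gave 2593 higher and 2878 lower; not every array correlated best with its own number. Signal over background limits the values of Map3k14, Map3k2, Map3k1 and Mapkbp1, since each was at background at 1 dose.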
